A study of Mus musculus with 5 samples.

Results

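The 10 genes described here belong to cystine uptake (Slc7a11, Slc3a2), glutathione synthesis (Gclc, Gclm), itaconate synthesis (Acod1) and the antioxidant programme of the transcription factor NRF2 (Nfe2l2, Hmox1, Nqo1, Txnrd1, Srxn1). They are 10 of the 19937 genes measured, each read by 1 probe set that carries that gene symbol alone and, where a gene has several, has the highest mean over all arrays. Slc7a11 and Acod1 were chosen by their difference between the groups, which an earlier look at these arrays had placed among the largest increases. Their differences between the groups are therefore given as a description with no test, whereas the other members were taken for their pathway. RNA came from CD45+CD3+CD4+CD44low cells that were sorted out of colonic lamina propria, the connective tissue beneath the gut epithelium, of mice. The conditional group, CD4cre/Cnb1flox, carries floxed Cnb1 (gene symbol Ppp3r1, the regulatory subunit of the phosphatase calcineurin) and a Cre recombinase under CD4 control. The control group is labelled control WT and CD4neg/Cnb1flox, read here as the floxed gene without the CD4-driven Cre, though the labels do not spell this out. The conditional group has 3 arrays and the control group 2, and these small numbers set the precision of all values below. The sources used here do not give strain, age or sex. A CD4-driven Cre acts from the double-positive stage of thymic development, so it is not restricted to the sorted cells. Nothing in the labels says that the arrays of a group came from separate animals, so the p-values reflect the spread between arrays, part or all of which may be technical.

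System xc- imports cystine in exchange for glutamate. Slc7a11 encodes its transport chain xCT, and Slc3a2 encodes the heavy chain 4F2hc (CD98) that carries xCT and several other amino acid carriers to the cell surface. Imported cystine is reduced to cysteine, which glutamate-cysteine ligase, built from the catalytic subunit Gclc and the modifier subunit Gclm, commits to glutathione. NRF2, encoded by Nfe2l2, is held down by KEAP1 and, when freed by oxidants or electrophiles, pairs with small MAF proteins on antioxidant response elements of genes such as Gclm, Hmox1, Nqo1, Txnrd1, Srxn1 and Slc7a11. Itaconate, which ACOD1 makes from the citrate cycle intermediate cis-aconitate, is best known from activated macrophages, where it inhibits succinate dehydrogenase and modifies KEAP1. The transcription factor ATF4, which responds to amino acid shortage, is the other established activator of Slc7a11.

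Promoter windows of 250 bases before the gene start are shown for the members with the 2 largest differences and for 2 known NRF2 targets, since the first pair stood far above both controls and the other pair between them. They are RefSeq sequences of build GRCm38.p6, read 5′ to 3′ on the gene's strand. Capitals mark matches, on either strand, to TGACNNNGC or TGAGNNNGC (2 forms of the antioxidant response element core), TGATGNAA (the core of the composite element bound by ATF4), TGANTCA (the AP-1 element) and GGAAAA (the NFAT core).
Slc7a11, chr3:50443614-50443863, minus strand: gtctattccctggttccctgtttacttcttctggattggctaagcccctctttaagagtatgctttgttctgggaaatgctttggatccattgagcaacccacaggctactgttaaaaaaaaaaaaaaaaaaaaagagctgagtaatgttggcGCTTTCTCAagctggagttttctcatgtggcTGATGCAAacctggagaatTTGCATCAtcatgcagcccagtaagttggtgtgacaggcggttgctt
Acod1, chr14:103046762-103047011, plus strand: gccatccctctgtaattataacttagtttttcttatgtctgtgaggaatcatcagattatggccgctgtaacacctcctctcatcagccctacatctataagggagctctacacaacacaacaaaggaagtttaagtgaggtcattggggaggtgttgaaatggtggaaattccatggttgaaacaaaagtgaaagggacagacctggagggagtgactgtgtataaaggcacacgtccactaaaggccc
Gclm, chr3:122245307-122245556, plus strand: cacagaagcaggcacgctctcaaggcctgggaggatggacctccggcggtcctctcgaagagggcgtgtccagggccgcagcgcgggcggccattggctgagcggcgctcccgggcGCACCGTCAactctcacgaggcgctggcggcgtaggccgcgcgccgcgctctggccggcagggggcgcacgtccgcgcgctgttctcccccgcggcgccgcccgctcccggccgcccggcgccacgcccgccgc
Srxn1, chr2:152105274-152105523, plus strand: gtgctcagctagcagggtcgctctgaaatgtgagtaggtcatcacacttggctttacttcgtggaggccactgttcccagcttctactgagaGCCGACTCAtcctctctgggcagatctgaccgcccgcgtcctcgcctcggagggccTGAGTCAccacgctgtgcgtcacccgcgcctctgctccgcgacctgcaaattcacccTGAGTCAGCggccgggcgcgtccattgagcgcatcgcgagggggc

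The Slc7a11 window held 2 copies of the ATF4 core, 1 on each strand, as TGATGCAA from 66 to 59 bases and TTGCATCA from 47 to 40 bases before the gene start. It also held 1 match to TGAGNNNGC, from 97 to 89 bases before the start, and none to TGACNNNGC. The form TGAGNNNGC was added after the windows were seen, so nothing is read from its matches. The Acod1 window held none of the 5 motifs, the Gclm window 1 TGACNNNGC, and the Srxn1 window 2 TGAGNNNGC, of which the one from 45 to 37 bases before the start overlaps an AP-1 element. Among 32851 promoter windows of the same length, 3.45% held TGATGNAA, 10.2% TGACNNNGC, 14.4% TGAGNNNGC, 6.75% TGANTCA and 20.4% GGAAAA. A match describes the letters of the window and does not show that a factor binds there. Windows were at hand for 8 of the 10 members, and the others are Gclc and Hmox1.

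Slc7a11 had log2 signals of 10.04, 9.81 and 9.66 in conditional replicates 1, 2 and 3, against 6.83 and 5.94 in control replicates 1 and 2. The 3 conditional arrays lay close together and far above both controls. The means were 9.84 ± 0.188 (SD, n = 3) in conditional cells and 6.38 ± 0.632 (SD, n = 2) in control cells, a difference of 3.45 on the log2 scale, or 11.0-fold. Taken against each control array alone, it was 8.03-fold above control replicate 1 and 14.9-fold above control replicate 2. It was the 10th largest increase of all 19937 genes. In control cells its signal lay at the 29.1 percentile of all genes, where RMA values are compressed and no detection call was available, so the fold is approximate.

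Slc3a2, the partner chain, was at 12.66, 12.69 and 12.63 in conditional cells, against 12.19 and 12.23 in control cells. The groups did not overlap and the replicates of each differed by less than 0.1. The difference was 0.45 ± 0.0984, with a 95% confidence interval from 0.20 to 0.70, and it did not pass the test over all genes (limma, adjusted p = 0.147, unadjusted p = 0.00567). Measured from control replicate 1 it was 0.47 and from control replicate 2 it was 0.43, so Slc3a2 was the member whose difference depended least on which control was used.

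Neither glutamate-cysteine ligase subunit passed the test. Gclc, the catalytic subunit, read 10.47, 10.55 and 10.50 in conditional cells, against 10.33 and 9.83 in control cells. All conditional values were above both controls, with a difference of 0.43 ± 0.173 (SE; limma, adjusted p = 0.358). Gclm, the modifier subunit, read 9.55, 9.54 and 9.48 in conditional cells, against 10.27 and 9.18 in control cells, so that the conditional arrays lay between the 2 controls. Its difference was -0.20 ± 0.327 (SE; limma, adjusted p = 0.860), -0.74 against control replicate 1 and 0.35 against control replicate 2.

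Acod1, the itaconate-forming enzyme, had log2 signals of 11.43, 11.01 and 10.76 in conditional cells, against 7.29 and 7.80 in control cells. All 3 conditional arrays exceeded both controls by about 3 units or more. The means were 11.07 ± 0.339 (SD, n = 3) in conditional cells and 7.55 ± 0.363 (SD, n = 2) in control cells, an 11.5-fold difference that was 13.7-fold against control replicate 1 and 9.60-fold against control replicate 2. Acod1 ranked 8th among all increases, 2 places above Slc7a11. Within the conditional group both genes were highest in replicate 1 and lowest in replicate 3. The 2 genes differed in the controls, where Slc7a11 was higher in control replicate 1 and Acod1 in control replicate 2.

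**Figure D1:**
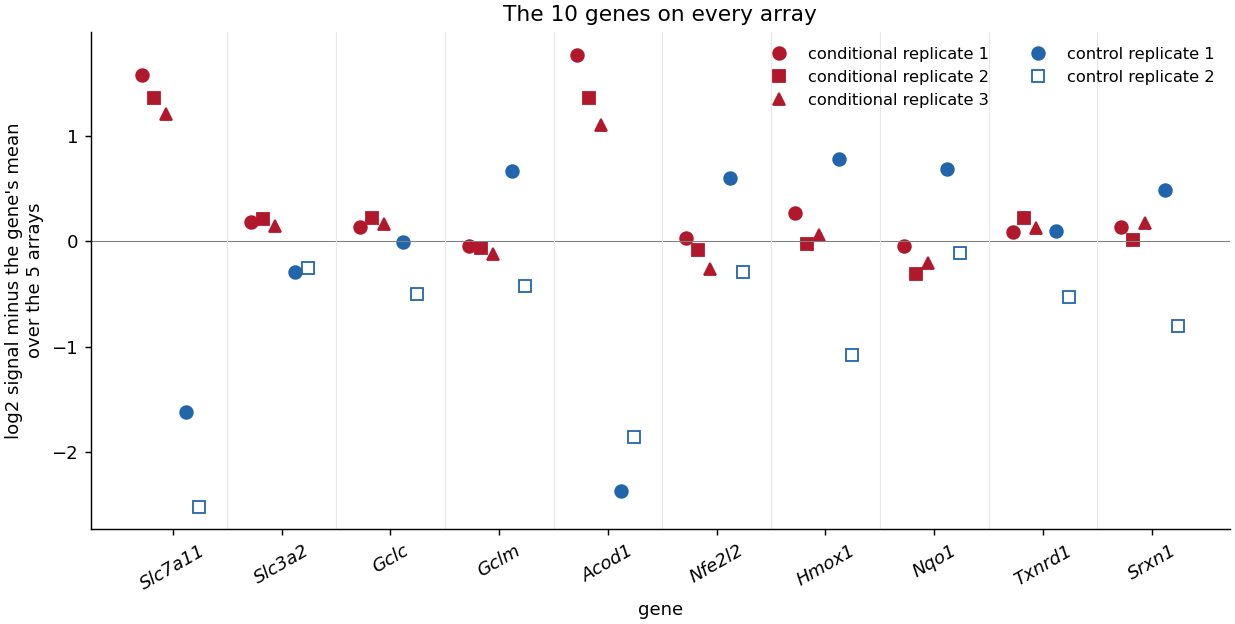
Log2 signal of the 10 genes on each of the 5 arrays, as the deviation from that gene's own mean over the arrays. Red points are the conditional arrays and blue points the control arrays; Slc7a11 and Acod1 differ by over 3 units between the group means, while for Gclm, Nfe2l2, Hmox1 and Srxn1 the red points lie between the 2 blue ones.

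The NRF2 gene itself, Nfe2l2, was at 10.77, 10.66 and 10.48 in conditional cells, against 11.34 and 10.45 in control cells. The conditional arrays again lay between the controls, and the difference of -0.26 ± 0.285 (SE) did not pass (limma, adjusted p = 0.751). Transcript level does not report NRF2 protein, which KEAP1 controls by degradation.

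Hmox1, the haem-degrading enzyme haem oxygenase 1, had the widest gap between the controls of all members. It read 9.34, 9.04 and 9.12 in conditional cells, against 9.85 and 7.99 in control cells, a difference of 0.25 ± 0.548 (SE; limma, adjusted p = 0.898) whose 95% confidence interval ran from -1.15 to 1.65. Conditional cells were thus 0.68 below control replicate 1 and 1.18 above control replicate 2.

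Srxn1, sulfiredoxin, which repairs over-oxidised peroxiredoxins, read 8.89, 8.76 and 8.92 in conditional cells, against 9.23 and 7.94 in control cells. The controls again lay on either side of the conditional arrays, with a difference of 0.27 ± 0.384 (SE; limma, adjusted p = 0.827). Txnrd1, the cytosolic thioredoxin reductase, read 8.97, 9.11 and 9.01 in conditional cells, against 8.98 and 8.35 in control cells. Control replicate 1 fell within the conditional range, with a difference of 0.36 ± 0.207 (SE; limma, adjusted p = 0.493). Nqo1, a quinone reductase widely used as an NRF2 readout, read 5.75, 5.48 and 5.59 in conditional cells, against 6.48 and 5.69 in control cells. It was the lowest of the members relative to control, at -0.48 ± 0.258 (SE; limma, adjusted p = 0.474), with control replicate 2 inside the conditional range, and in control cells its signal lay at the 24.2 percentile of all genes.

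An adjusted p under 0.05 calls 0.416% of all genes, 0.371% higher and 0.0451% lower, and 2 of the 10 members. Nothing is read from that count, since the 2 are Slc7a11 and Acod1, whose choice used this difference. None of the other 8 passed in limma, and 1 of them, Slc3a2, had an unadjusted p under 0.05. The groups did not overlap for 4 members, all higher in conditional cells, where 17.4% of all genes had groups apart in that direction and 13.1% in the other. Nothing is read from the separation of Slc7a11 and Acod1, which are 2 of these 4. Of the other 8 members, 2 (25%), Slc3a2 and Gclc, had groups apart. For 4 members, Gclm, Nfe2l2, Hmox1 and Srxn1, all conditional values lay between the controls, as they did for 17.9% of all genes. The median difference of the 8 members other than Slc7a11 and Acod1 was 0.26 against both controls, -0.53 against control replicate 1 and 0.55 against control replicate 2, beside 0.03, 0.09 and -0.02 for all genes. The number of members called was 0 with any 1 conditional array left out and 0 with array weights. A fit with 1 control left out rests on a lone control array, so only differences are read from it. Hmox1 was at 1.18 without control replicate 1 and at -0.68 without control replicate 2.

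**Figure D2:**
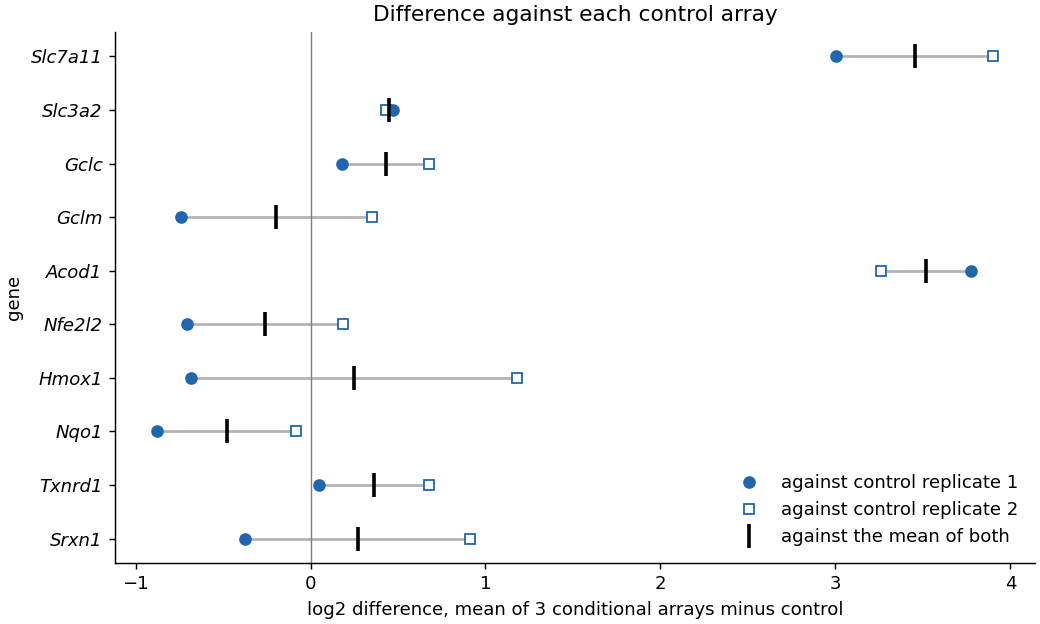
Log2 difference of the mean of the 3 conditional arrays from control replicate 1 (filled circles), from control replicate 2 (open squares) and from the mean of both (black bars), 1 row per gene. Slc7a11 and Acod1 lie at or beyond 3 against either control, Slc3a2 gives nearly the same value against both, and Gclm, Nfe2l2, Hmox1 and Srxn1 change sign with the control array.

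The profiles of the members over the 5 arrays fell into 2 sets. Measured as the root mean square difference between profiles after each gene's own mean was subtracted, Slc7a11 and Acod1 were 0.46 log2 units apart, while each was at least 1.49 units from every other member. Among the other members the nearest pairs were Gclc with Txnrd1, at 0.0548, and Gclm with Nfe2l2, at 0.0969. By the same measure the genes of the whole array nearest to Slc7a11 were Nmrk1 (0.34), a kinase of NAD synthesis, the cytokine gene Il1b (0.36), the C-type lectin receptor gene Clec4d (0.36), Igsf6 (0.38) and Il12rb2 (0.41), a chain of the interleukin-12 receptor. Nearest to Acod1 were Lcn2 (0.27), which encodes the siderophore-binding lipocalin 2, Ttc39c (0.36), Clec4d (0.41), Il12rb2 (0.42) and Cabyr (0.45). These are descriptions over 5 arrays, and genes with a large step between the groups are bound to lie near each other.

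Genes that activated macrophages induce together with Acod1 were the list with the most members past the test. Of 31 such genes, 6 passed as higher in conditional cells (19.4%, against 0.371% of all genes) and 0 as lower. The groups were apart with conditional higher for 19 (61.3%, against 17.4% of all genes) and with conditional lower for 1, Ptges. By difference, 29 of the genes were above zero and 2 below, Ptges at -1.21 and Il10 at -1.49 (limma, adjusted p = 0.444 and 0.481). The count of 6 was 0 with any 1 conditional array left out and 3 with array weights. The list was drawn up with the increases of Il1a and Clec4e already known, so its count is not independent evidence. The cytokine gene Il1a read 10.45, 10.24 and 10.81 in conditional cells, against 5.38 and 5.09 in control cells, about 38.5-fold higher. The neutrophil chemokine gene Cxcl2 read 11.93, 11.73 and 11.72 in conditional cells, against 9.57 and 9.34 in control cells, and was 5.07-fold higher (limma, adjusted p = 0.0182). Both stood clear of the controls on every array. The control signals of Il1a, Clec4d, Clec4e and Lcn2 were dim, from the 13.3 percentile of all genes for Il1a to the 31.0 percentile for Lcn2, so their folds are approximate, like that of Slc7a11. Clec4e and Clec4d, neighbouring C-type lectin receptors for microbial glycolipids, rose by 4.69 and 2.86, Lcn2 rose by 3.06 and Slpi, a secreted protease inhibitor, rose by 1.66 on the log2 scale. The list median was 1.12, at 1.43 against control replicate 1 and 1.03 against control replicate 2. Irf1, a transcription factor that induces Acod1 in macrophages, was at 0.05 (limma, adjusted p = 0.940), with its conditional values between the controls.

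Of all genes, 14.5% had an unadjusted p under 0.05, which is the share to set beside the counts at that level in the lists that follow. The regulators of NRF2 held 0 of 19 genes past the test (limma, 4 at an unadjusted p under 0.05), with a median of 0.16, or 0.02 against control replicate 1 and 0.13 against control replicate 2. Keap1 was at -0.06 and Bach1, which competes with NRF2 for its sites, at -0.21. The small MAF partner genes Maff and Mafk were at -1.05 (limma, adjusted p = 0.0834) and -0.48 (adjusted p = 0.209), with every conditional value below both controls. Mafg, also a small MAF gene, was at 0.009 (limma, adjusted p = 0.982), with its conditional values between the controls. The kinase gene Prkcd was at 0.60.

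The other NRF2 targets held 0 of 33 genes past the test (limma, 2 higher and 8 lower at an unadjusted p under 0.05). Their median was -0.57, with 26 of 33 (78.8%, against 44.1% of all genes) below zero, but it depended on the control array, at -0.70 measured from control replicate 1 and -0.07 from control replicate 2. Control replicate 1 was above control replicate 2 for 30 of the 33 (90.9%, against 39.9% of all genes). The groups were apart with conditional lower for 14 genes (42.4%, against 13.1% of all genes) and with conditional higher for 3, Abcc1, Gsr and the ferritin heavy chain gene Fth1 (0.17). Abcc1, a drug and glutathione-conjugate pump, was at 0.88 (limma, adjusted p = 0.0724), and Gsr, glutathione reductase, at 0.89 (limma, adjusted p = 0.130). Gstp1, a glutathione transferase, was at -0.80 (adjusted p = 0.109).

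Glutathione and thioredoxin enzymes held 0 of 28 past the test (limma, 5 higher and 7 lower at an unadjusted p under 0.05), with a median of -0.19, or -0.31 against control replicate 1 and -0.03 against control replicate 2. Control replicate 1 was above control replicate 2 for 22 of the 28 (78.6%, against 39.9% of all genes). Glutaredoxin, Glrx, was at 1.45 (limma, adjusted p = 0.0969) and catalase, Cat, at -0.57. Iron and ferroptosis genes held 0 of 25 (limma, 5 at an unadjusted p under 0.05), with a median of -0.004 whose sign varied with the processing. Slc39a8, a zinc, manganese and iron importer, was at 1.44, Gpx4, the glutathione peroxidase that removes lipid peroxides, at 0.48 and Cd44, the surface receptor by whose low level the cells were sorted, at 0.81, none past the test (limma, adjusted p = 0.0833, 0.151 and 0.115) and each with conditional above both controls.

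Amino acid carriers and ATF4 targets other than the members held 0 of 33 past the test (limma, 1 higher and 3 lower at an unadjusted p under 0.05), with a median of -0.08, or -0.04 against control replicate 1 and -0.15 against control replicate 2. Atf4 itself was at -0.08 (limma, adjusted p = 0.866), the cationic amino acid carrier gene Slc7a6 at 0.54, Cebpb at -0.79 and Atf3 at -1.12. For the last 2, transcription factor genes induced in stress, every conditional value was below both controls. The citrate cycle list held 0 of 23 past the test (limma, 1 higher and 6 lower at an unadjusted p under 0.05), with a median of -0.08, or -0.16 against control replicate 1 and -0.004 against control replicate 2. Idh2, the mitochondrial isocitrate dehydrogenase, was at -1.55 (limma, adjusted p = 0.128), Clybl, a mitochondrial lyase that takes part in clearing itaconate-derived citramalyl-CoA, at -1.08 (adjusted p = 0.219) and the succinate-CoA ligase subunit gene Suclg2 at -0.67 (adjusted p = 0.241).

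**Figure D3:**
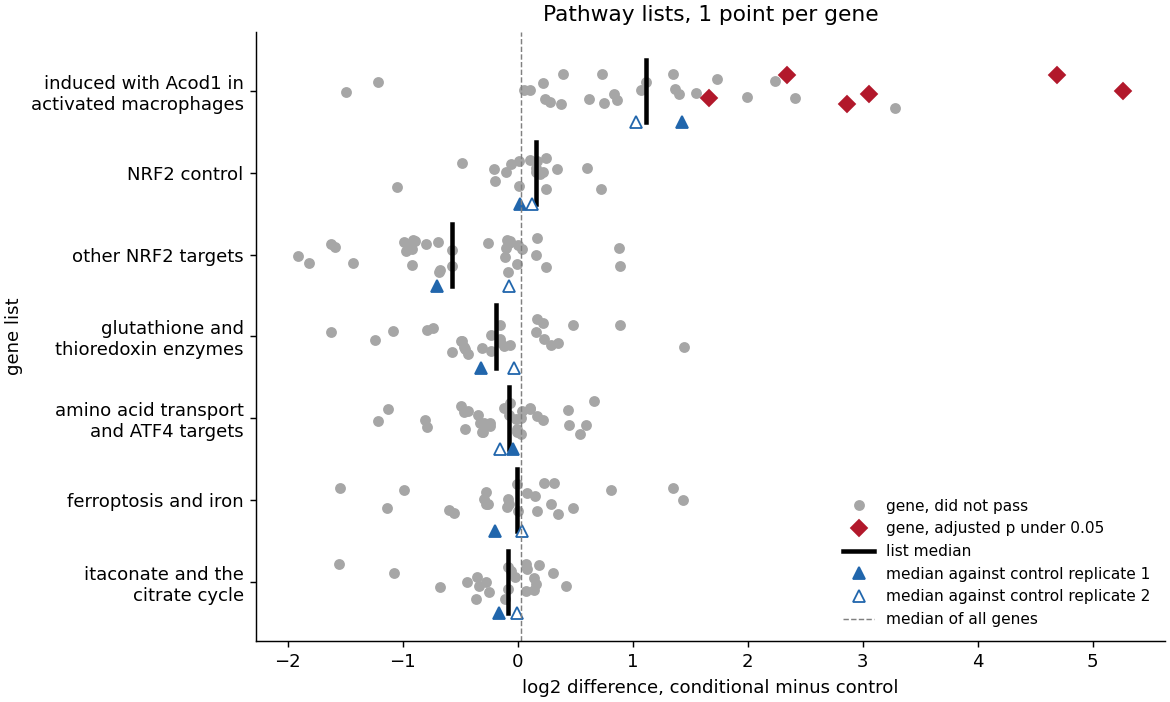
Log2 difference between conditional and control cells for each gene of 7 lists, with the list median (black bar), the medians against control replicate 1 (filled triangle) and control replicate 2 (open triangle) and the median of all genes (dashed line). The 6 genes past the test (red diamonds) are all in the list of genes induced with Acod1 in activated macrophages, and the other NRF2 targets have a median of -0.70 against control replicate 1 and of -0.07 against control replicate 2.

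Cell type markers differed between the 2 control arrays. The mean log2 signal of 17 T cell markers was 10.73, 10.84 and 11.01 on the conditional arrays, against 8.34 on control replicate 1 and 11.13 on control replicate 2, with Cd4 at 9.26 on control replicate 1 and 11.83 on control replicate 2. Stromal and endothelial markers were at 9.33, 9.03 and 8.40 on the conditional arrays, against 10.28 and 8.84 on control replicates 1 and 2, and epithelial markers at 7.59, 7.34 and 7.01, against 8.79 and 7.83. Control replicate 1 thus carried the least T cell and the most stromal and epithelial signal, and it was the array on which Gclm, Nfe2l2, Hmox1, Nqo1 and Srxn1 were highest. In RNA of a sorted population, fewer cells of a type and less RNA per cell cannot be told apart, and the part of these markers in the members' values was not tested.

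Macrophage, monocyte and dendritic cell markers had conditional above both controls for 11 of 23 genes (47.8%, against 17.4% of all genes). Their summed linear signal ranged from 9404 to 12120 on the conditional arrays, against 7428 to 7505 on the control arrays. None passed the test (limma, 9 at an unadjusted p under 0.05, all higher), with Itgax at 1.17, Clec7a at 2.20 and Xcr1 at 0.48. Their mean was highest on conditional replicate 3 (8.01, against 7.57 and 7.58 on the other conditional arrays), where Slc7a11 and Acod1 were lowest in that group. Granulocyte and mast cell markers had conditional above both controls for 12 of 21 genes (57.1%), with summed signals from 2784 to 3103 on the conditional arrays, against 1540 to 1647 on the control arrays. None of these passed either (limma, 9 at an unadjusted p under 0.05), with S100a8 at 1.32, Kit at 2.17 and Retnlg at 1.20. The order of their means on the conditional arrays (6.44, 6.39 and 6.33) was that of Slc7a11 and Acod1. Epithelial (7.59, 7.34 and 7.01) and stromal markers (9.33, 9.03 and 8.40) had the same order with wider steps. Nothing is read from the order of 3 arrays for any marker list. Log2 signals have no zero and came with no detection call, so no marker could be called absent. The part of any of these cell types in the Slc7a11 and Acod1 values was not tested.

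Natural killer and innate lymphoid markers averaged 8.32, 8.55 and 8.46 on the conditional arrays, against 6.71 and 7.73 on control replicates 1 and 2. Conditional was above both controls for 5 of the 9 (55.6%, against 17.4% of all genes). Of these 9 markers, 1 passed the test, the receptor adaptor gene Tyrobp, which myeloid cells also use, higher by 1.88 (limma, adjusted p = 0.0269). Of 23 epithelial markers, Krt20 fell by 1.67 and Cdhr5 fell by 1.41 (limma, adjusted p = 0.0327 and 0.0366). Conditional was below both controls for 11 of the 23 (47.8%, against 13.1% of all genes) and above both for 1. Among the 11 B cell markers it was below both controls for 6 (54.5%) and above both for 0. None of 17 T cell, 11 B cell or 20 stromal markers passed (limma, 0, 4 and 3 at an unadjusted p under 0.05), with Trat1 at 2.76, Ebf1 at -1.07 and Col3a1 at -1.63. The targeted gene Ppp3r1 read 8.64, 8.83 and 8.77 on the conditional arrays, against 8.99 and 8.60 on the control arrays (limma, adjusted p = 0.927). A probe set outside the deleted exons, which the labels do not name, checks nothing about the deletion.

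**Figure D4:**
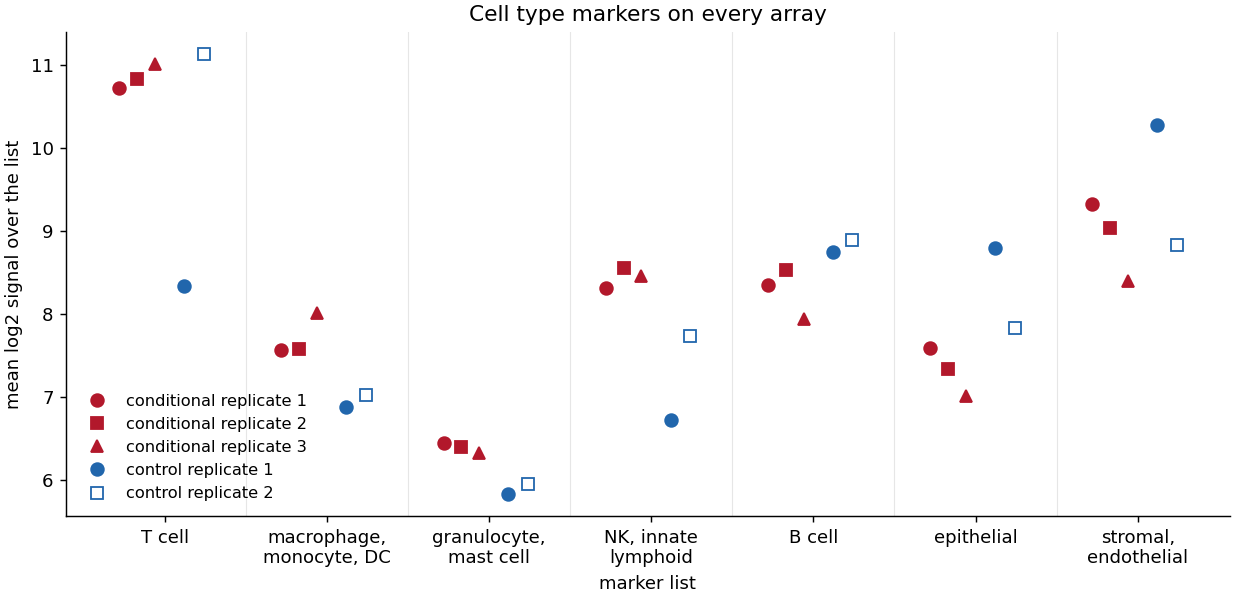
Mean log2 signal of 7 cell type marker lists on each array, conditional in red and control in blue. Control replicate 1 (filled blue circle) is low for T cell markers and high for epithelial and stromal markers. The macrophage, granulocyte and natural killer lists are higher on all 3 conditional arrays than on both controls, and the B cell and epithelial lists are lower.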

How the data were processed

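RNA of 5 samples was hybridised to Affymetrix arrays. The deposited values are log2 signals, and the submitters' processing notes name RMA and the oligo package for them. RMA corrects for background, brings all arrays to a common distribution and combines the probes of a set, so a global shift is lost and differences of dim genes shrink. The sources used here give neither versions nor a genome build for this step. Arrays carry no read depth. Medians per array ranged from 7.12 to 7.23 over 34760 probe sets.

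The platform annotation, an older release, gave 1 symbol for 21640 probe sets, several for 1321 and was silent on 11799. Of the first, 21553 matched a reference gene table by gene number and 0 symbols changed. Groups were compared with limma 3.58.1 (R 4.3.3), with no covariate, no filter and Benjamini-Hochberg adjustment over 19937 genes, at a threshold of 0.05. On simulated arrays with 200 of 19937 genes changed, the conditional minus control test found 20.6% of those shifted by 1 log2 unit and 81.8% of those shifted by 2, and 5.21% of its calls were false. The simulation gave each gene the same variance in both groups. In the real data the gene-wise differences between the 2 controls had an SD of 0.756, against 0.239 to 0.299 between conditional arrays. The simulated shares therefore need not hold for the real arrays.

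Members, lists and tests were chosen with earlier results of these data known. Named are all members, list genes past the test (otherwise up to 3 with the smallest p) and the 5 nearest profiles of Slc7a11 and Acod1. Keap1, Bach1, Mafg, Atf4, Irf1, Fth1, Cd4 and Ppp3r1 were added for their role after their values were seen, and the motif TGAGNNNGC after the promoter windows were seen. Promoter matching counted both strands. Sequences came from RefSeq, matched by symbol.

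The labels do not say that a number marks a shared experiment. Alternatives were another quantile normalization, median centring, a filter on dim genes, the mean of all probe sets, array weights, a variance trend, a block on replicate number and each array left out.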

Additional observations from a re-analysis of the deposited data

How the results depend on the processing

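Slc7a11 stayed between 3.01 and 3.90 and Acod1 between 3.26 and 3.78 in all 12 alternatives, but array weights gave 13 genes past the threshold and 0 members, and leaving out 1 array gave between 0 and 5474 genes and between 0 and 7 members. The upper ends of these ranges came from leaving out control replicate 2. That fit rests on a lone control array, so the spread between controls does not enter it, and nothing is read from its counts. The counts of 0 came from leaving out any conditional array (limma, 1417 to 2037 genes at an unadjusted p under 0.05, 3 members in each). Leaving out 1 array moved Gclm between -0.74 and 0.35, Nfe2l2 between -0.71 and 0.18, Hmox1 between -0.68 and 1.18 and Srxn1 between -0.38 and 0.91, each end coming from 1 of the controls. The ferroptosis and iron median of -0.004 turned to 0.0028 without the dimmest genes, to 0.013 with array weights and ranged from -0.20 to 0.037 with 1 array left out. The other 6 list medians kept their sign, but without 1 of the controls the NRF2 control median of 0.16 came to 0.02, the other NRF2 targets' -0.57 to -0.07, the glutathione list's -0.19 to -0.03, the citrate cycle's -0.08 to -0.004 and the amino acid list's -0.08 to -0.15. The replicate block gave 69 genes, 2 of them members, beside 83 and 2 without it. Replicate 3 has no control array, so the block gave the same differences as leaving out conditional replicate 3 (Slc7a11 3.54, Acod1 3.67). Without the block those differences called 0 genes and 0 members, so the 69 does not show that the calls are stable. Deviations from the group means of the same-numbered arrays correlated at 0.40 and -0.29 over genes, each control being the mirror of the other by construction, so the numbers were not taken as pairs. The filter on dim genes removed Nqo1.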
